A study of Arabidopsis thaliana with 6 samples.

Results

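The genes described here are 5 Arabidopsis thaliana members of the aluminium-induced-like family, AT4G27450, AT3G15450, AT5G19140 (AILP1), AT5G43830 and AT3G22850, together with the asparagine synthetase gene ASN1 (AT3G47340). They were chosen by family name and by the sugar-repressed character of ASN1, and the choice was made with their log2 differences, saliva minus control, already in view. The 6 genes were found among 8216 genes that had a probe set of their own, each of the 6 with 1 probe set. The probe annotation named the gene of 5 of these probe sets. The probe set of ASN1 was the one given by the rule that selected the genes, since the annotation used here does not list it.

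The saliva group consisted of leaves of 3-week-old wild-type Col-0 plants that received, by infiltration, artificial diet (sucrose plus amino acids) from 20 aphids of the species Myzus persicae, the green peach aphid, and the control group received the same diet from cups with 0 aphids. Per the labels' protocols, the aphids were a tobacco-adapted red lineage raised on cabbage, 50 of them were given 50 µL of diet for 24 h, and a syringe without a needle was used on leaves still on the plant. Leaves of both groups were therefore infiltrated with sugar and amino acids, and no untreated leaf or leaf with a feeding aphid is part of the comparison. A sample was a pool of 18 leaves from 6 plants (3 leaves per plant) harvested after 24 h, and the experiment was done 3 times with both treatments in shared pots. This gave 3 saliva and 3 control samples in 3 pairs, each on 1 Affymetrix ATH1 array, a 1-colour array that reads a gene through a set of short probes.

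Aluminium-induced-like proteins are named after a wheat transcript found in aluminium-stressed roots, and they carry a glutamine amidotransferase domain of the kind that also forms one end of asparagine synthetase. Asparagine synthetase moves the amide nitrogen of glutamine onto aspartate, and the product, asparagine, is a nitrogen carrier with little carbon. ASN1, also called DARK INDUCIBLE 6, is known to be low in illuminated or sugar-fed leaves and high in darkness or sugar starvation, when the kinase SnRK1 is active.

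Intensities were the authors' normalized values on a linear scale, and the array medians lay between 139.2 and 146.8. The lowest intensity on an array was between 3.23 and 3.28. Leaf mesophyll markers were high, with 2 of 6 listed genes measured (RCA and LHCB4.1), whose summed intensity was 53577 to 55885 on saliva arrays and 54213 to 57788 on control arrays. The 1 measured root marker of 4 was near the lowest intensity, at 4.36 to 4.41 on saliva arrays and 4.33 to 4.42 on control arrays. The 1 measured guard cell marker of 3, FMA, ranged over 65.5 to 69.4 on saliva arrays and 44.3 to 76.5 on control arrays. For flower and seed markers 0 of 4 had a named probe set, and for companion cell markers 0 of 3.

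Of the 6 genes, 4 had a higher intensity after saliva in all 3 pairs, and on each of these the 3 saliva arrays lay above the 3 control arrays. The differences were largest for ASN1, at 1.55 ± 0.47 on the log2 scale (SD, n = 3 pairs), and AT4G27450, at 1.33 ± 0.59. AT3G15450 had 0.56 ± 0.16 and AILP1 had 0.23 ± 0.14. AT5G43830 and AT3G22850 had 0.034 ± 0.14 and -0.031 ± 0.24, with pairs on both sides of 0. Since this contrast was used to choose the genes, these values are a description and no test of them is given.

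AT4G27450 had intensities of 576.7, 857.5 and 921.8 in saliva samples 1, 2 and 3, against 362.0, 242.5 and 325.4 in control samples 1, 2 and 3. The groups did not overlap, and the gap within a pair was narrowest in pair 1. The intensity with saliva was 1.59-fold that of the control in pair 1, 3.54-fold in pair 2 and 2.83-fold in pair 3. Pair 2, with the widest gap, had the lowest control of the 3, while its saliva sample lay between the other two. The SD of the log2 intensity was 0.36 over saliva samples and 0.30 over control samples, so this gene varied within both groups. The lowest sample was number 1 in the saliva group and number 2 in the control group.

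AT3G15450 had intensities of 4041, 4246 and 4475 in saliva samples 1, 2 and 3 and 2942, 2534 and 3231 in control samples 1, 2 and 3. Every saliva value lay above every control value. The saliva samples were closer together than the controls, with a spread of 0.15 log2 units between the lowest and highest saliva sample and 0.35 between the lowest and highest control. Its fold was 1.37 in pair 1, 1.68 in pair 2 and 1.38 in pair 3.

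AILP1 had 9734, 10647 and 11655 in saliva samples 1, 2 and 3 and 9292, 8538 and 9533 in control samples 1, 2 and 3. Its groups were separate by a narrow margin, since the lowest saliva sample was 9734 and the highest control 9533. In pair 1 the difference was 0.067 on the log2 scale, against 0.32 in pair 2 and 0.29 in pair 3.

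AT5G43830 had overlapping groups, with 3813, 3480 and 3292 in saliva samples 1, 2 and 3 and 3935, 3043 and 3398 in control samples 1, 2 and 3. Sample 1 was the highest of its group in both treatments. AT3G22850 also overlapped, with 485.2, 346.8 and 403.2 in saliva samples 1, 2 and 3 and 455.4, 429.5 and 370.0 in control samples 1, 2 and 3. For AT3G22850 pair 2 had a difference of -0.31 on the log2 scale, while pairs 1 and 3 had 0.091 and 0.12. In pair 2 these 2 genes went in opposite directions, with 0.19 for AT5G43830.

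ASN1 had 118.2, 96.3 and 69.7 in saliva samples 1, 2 and 3, against 29.7, 32.2 and 33.4 in control samples 1, 2 and 3. The lowest saliva value was more than 2-fold the highest control. The saliva samples had an SD of 0.38 on the log2 scale, and the controls lay closer together, with an SD of 0.088. The lowest control still lay 3.20 log2 units above the lowest intensity found on a control array. The intensity with saliva was 3.99-fold that of the control in pair 1, 2.99-fold in pair 2 and 2.09-fold in pair 3. Pair 1 thus held the largest difference of ASN1 and the smallest of AT4G27450, AT3G15450 and AILP1.

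**Figure D1:**
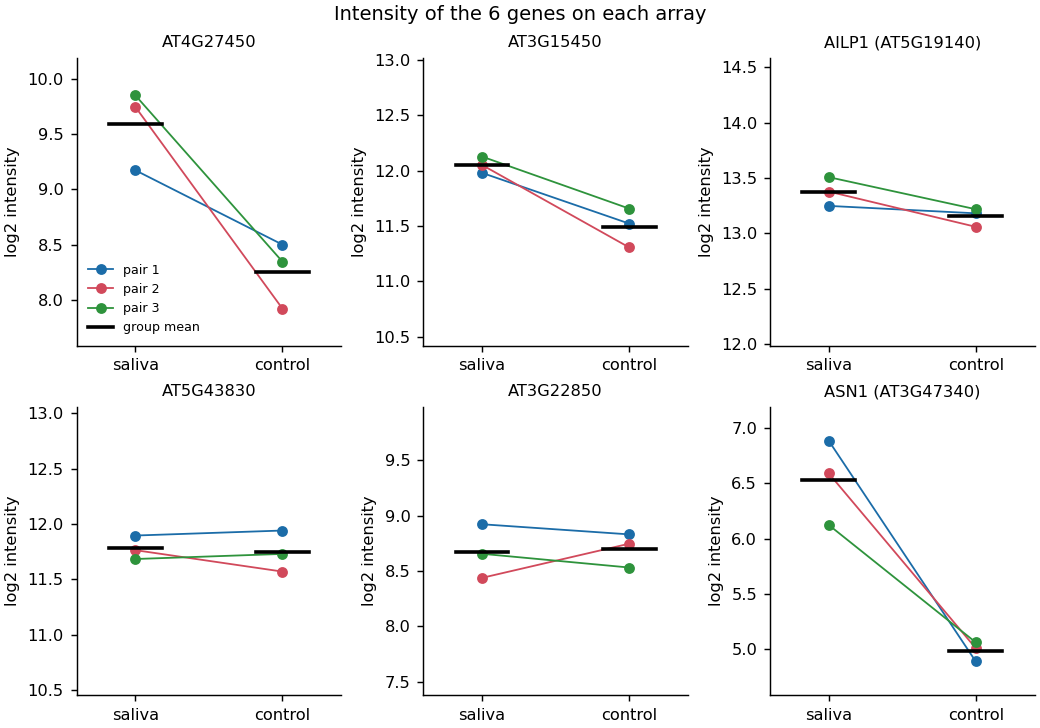
Log2 intensity (vertical axes, each spanning the same number of log2 units) of the 6 genes in saliva and control samples, with a line joining the 2 samples of a pair and black bars for group means. The saliva points lie above all control points for AT4G27450, AT3G15450, AILP1 and ASN1, and the groups overlap for AT5G43830 and AT3G22850.

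**Figure D2:**
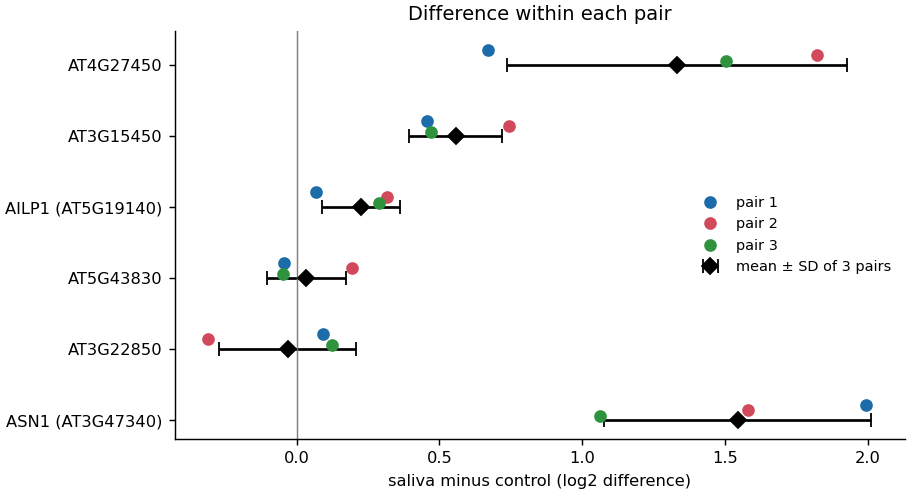
Saliva minus control in log2 units (horizontal axis) for each gene, with coloured points for the 3 pairs and a diamond with a bar for the mean and SD over pairs. ASN1 at 1.55 and AT4G27450 at 1.33 stand to the right, and the pairs of AT5G43830 and AT3G22850 fall on both sides of 0.

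Across all 15177 probe sets tested, 16.7% were above 0 in all 3 pairs and 7.66% had each saliva array above each control array, where 4 of the 6 genes did so on both counts. Below 0 in all 3 pairs were 15.6% of the probe sets, and 8.58% had each saliva array below each control array, where 0 of the 6 genes did so. A mean difference of at least 1 on the log2 scale was found for 2 of the 6 genes and for 0.593% of all probe sets, that is, 90 probe sets. In order of the difference, ASN1 was number 20 and AT4G27450 number 36 of the 15177, followed by AT3G15450 at 351, AILP1 at 1765, AT5G43830 at 6115 and AT3G22850 at 9277. The median difference was 0.39 over the 6 genes, 0.23 over the 5 aluminium-induced-like genes and -0.00056 over all probe sets. The genes were picked with these differences known, so the counts say nothing more about them.

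In the limma fit with the pairs as a block, which covered all probe sets, 0% of them had an adjusted p under 0.05 in either direction. The lowest adjusted p over all probe sets was 0.338, and 848 higher and 826 lower probe sets had an unadjusted p under 0.05. The folds in the authors' deposited table, which are ratios of linear group means, were 2.98 for ASN1, 2.53 for AT4G27450, 1.47 for AT3G15450, 1.17 for AILP1, 1.02 for AT5G43830 and 0.984 for AT3G22850. The authors' paired false discovery rates were under 0.05 for 3 of the 6 genes, and their unpaired ones for 0 of the 6. Whether a gene is called thus depends on the method. These rates concern the contrast used to choose the genes, so they are no test of them. The share of all probe sets under 0.05 in those columns was not counted. In whole leaves, a change in the number of cells that make a transcript and a change in the transcript per cell cannot be told apart.

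The selection did not use the differences between repeats, so these were tested with the F test of the repeat terms in the same limma fit, a test added after the values were seen. For the 6 genes the adjusted p lay between 0.931 and 0.992, and 0 of 6 passed. Over all probe sets 0% passed, and 747 of the 15177 had an unadjusted p under 0.05, with 0 of the 6 genes among them. With only 6 genes, that count does not show that they were steadier between repeats than other genes. The highest F among the 6 genes was that of AT5G43830, at 2.99, followed by AT3G22850, at 2.53. Sample 1 was the highest in both groups for each of these 2 genes.

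Genes of the surrounding pathways were taken from 10 lists with 107 loci, of which 20 could be read through a probe set named for that gene alone. None of the 20 passed the limma test in either direction (0 at an adjusted p under 0.05, lowest adjusted p 0.338), beside the 0% of all probe sets. At an unadjusted p under 0.05 there were 4 of the 20, where 11.0% of all probe sets were. Of the 20, 6 were above 0 in all 3 pairs and 0 were below 0 in all 3, beside 16.7% and 15.6% of all probe sets. Their median difference was 0.10, beside -0.00056 over all probe sets. The annotation gave no gene for 6513 probe sets, so a listed gene counted as not measured may still have a probe set on the array. With so few members measured, a list's values describe those members and not the pathway.

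For sugar starvation and SnRK1 markers, 2 of 18 genes were measured. AKINBETA1, a beta subunit of SnRK1 that is itself counted among the starvation markers, had log2 differences of 0.43, 0.81 and 0.011 in pairs 1, 2 and 3 (limma adjusted p = 0.478). ATL8, a RING-type ubiquitin ligase gene, had 0.68, 0.095 and -0.026 (limma adjusted p = 0.633). Both means, 0.42 and 0.25, are therefore smaller than or close to the spread between pairs, with SDs of 0.40 and 0.38. In the list of SnRK1 subunits, with 3 of 6 measured, AKINBETA1 stood beside AT4G16360 at -0.10 ± 0.14 and AT2G28060 at -0.11 ± 0.24, the genes of 2 other beta-type subunits.

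Breakdown of branched-chain amino acids and proline is another starvation-linked pathway, in which carbon skeletons of amino acids are fed into respiration, and 5 of its 13 listed genes were measured. Their median difference was 0.45, and 3 of the 5 were above 0 in all 3 pairs. MCCA, the biotin-carrying subunit of methylcrotonyl-CoA carboxylase in leucine breakdown, had 0.36, 0.54 and 0.57 in pairs 1, 2 and 3 (limma adjusted p = 0.338). IVD, isovaleryl-CoA dehydrogenase in the same pathway, had 0.15, 0.55 and 0.66 (limma adjusted p = 0.390). AT5G38710, a proline dehydrogenase gene, had a mean of 0.79 that rests on pair 3, with 0.026, 0.38 and 1.95, and AT5G09300, a dim probe set for a subunit of the branched-chain keto acid dehydrogenase, had -0.21 ± 0.32. MCCB, the partner subunit of MCCA, was looked at after the values were seen and had 0.0099 ± 0.27.

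Of the bZIP transcription factors of the S1 and C groups, some of which are known to activate ASN1 under low energy, 1 of 9 was measured. BZIP53 had intensities of 1544, 1750 and 1798 in saliva samples 1, 2 and 3 and 1415, 1377 and 1338 in control samples 1, 2 and 3. The saliva values lay above the control values, with a difference of 0.30 ± 0.16 (limma adjusted p = 0.415). The list of trehalose phosphate synthases and phosphatases had 0 of 14 genes with a named probe set and was not analysed here.

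Among the genes that surround ASN1 in asparagine and glutamine metabolism, 2 of 17 were measured, both of them asparaginases, which hydrolyse asparagine. ASPGA1 had -0.012 ± 0.088 at a control level of 9.30 on the log2 scale, and ASPGB1 had 4.95e-05 ± 0.030 with a control mean of 2.06, not far above the lowest intensities. GFAT, which makes glucosamine phosphate with a glutamine amidotransferase domain, was the 1 measured of 4 other enzymes with such a domain. It had 0.45, 0.68 and -0.83 in pairs 1, 2 and 3, a mean of 0.10 with pairs in both directions.

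Genes known to be induced by sugar, the opposite of ASN1, had 3 of 10 members measured and a median difference of 0.35. APL3, a large subunit of ADP-glucose pyrophosphorylase in starch synthesis, had 0.57, 0.75 and 0.64 in pairs 1, 2 and 3 (limma adjusted p = 0.338). The list median is that of DFR, of anthocyanin synthesis, whose 0.35 ± 0.63 rests on saliva sample 3, with -0.032, 0.0036 and 1.08 in pairs 1, 2 and 3 and a mean of -0.014 without replicate 3. APL4 had -0.033 ± 0.077, and the control means of DFR and APL4 were low, at 2.00 and 3.07 on the log2 scale. A sugar-repressed gene, ASN1, and a sugar-induced gene, APL3, were both above 0 in all 3 pairs. DFR and APL4, also sugar-induced, had pairs on both sides of 0, and a cause was not tested.

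Of the sugar transporters 3 of 12 were measured, with a median of 0.098. SWEET11, a sucrose exporter of the phloem route, had -0.24 ± 0.30, SFP1 had 0.32 ± 0.52 and SWEET2 had 0.098 ± 0.42, and the pairs of each went both ways. Of 8 aluminium response genes 1 was measured, AT1G51340, a citrate transporter of the MATE family. Its difference of -0.28 ± 0.50 rests on pair 1, with -0.86 in pair 1, -0.0024 in pair 2 and 0.013 in pair 3.

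**Figure D3:**
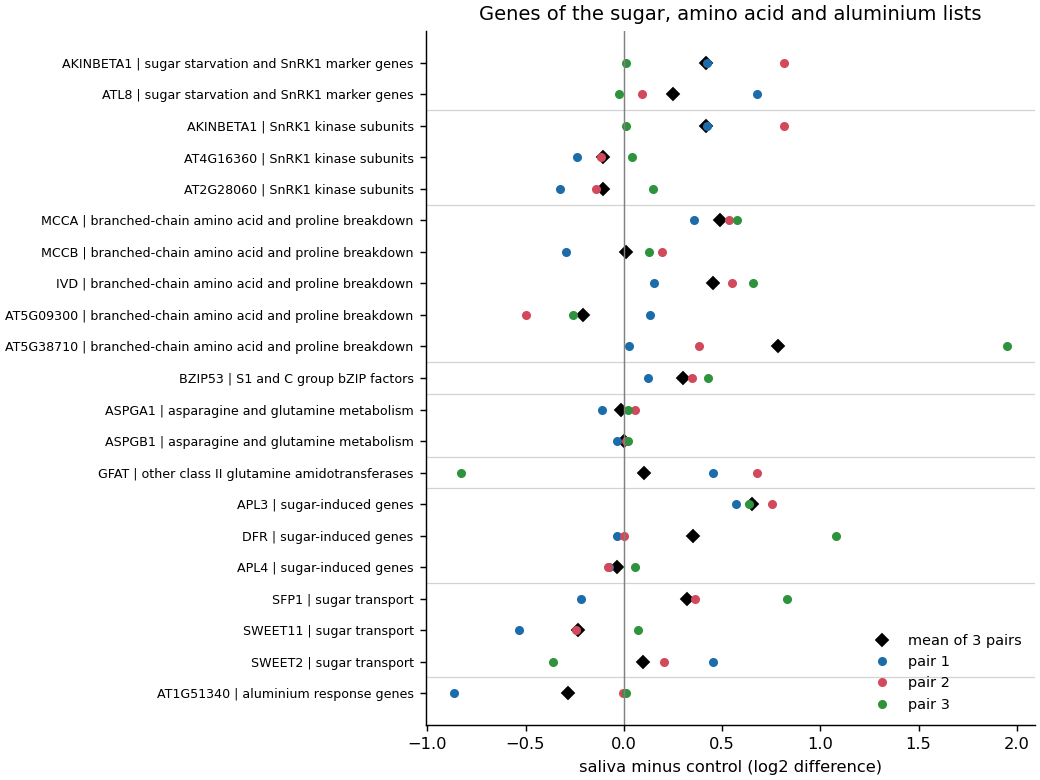
Saliva minus control in log2 units (horizontal axis) for each measured gene of the lists, with coloured points for the 3 pairs and a diamond for their mean; AKINBETA1 stands in 2 lists. MCCA, IVD, BZIP53, APL3, AKINBETA1 and AT5G38710 lie above 0 in all 3 pairs, and AT5G38710 and DFR have 1 pair far to the right.

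Likeness between genes was measured as the root mean square distance over the 6 arrays between log2 profiles. Each profile was centred on its own mean, so that 0 means the same profile. The group means were not removed, so the distance includes the saliva minus control difference in view when the genes were chosen. A gene with a difference of like size therefore tends to lie near, and the distances are a description only. Neighbours were sought among genes with a probe set of their own, the 6 genes aside. The gene nearest to AT4G27450 was EXO (EXORDIUM), which brassinosteroids induce and which promotes leaf growth, at a distance of 0.10 log2 units, and the next genes were at 0.28 to 0.29. The profile of AT4G27450 itself had a root mean square size of 0.72. EXO had intensities of 565.5, 976.6 and 918.8 in saliva samples 1, 2 and 3 and 353.4, 281.7 and 356.8 in control samples 1, 2 and 3. Like AT4G27450, it had its narrowest gap in pair 1 and its lowest control in pair 2. The other 4 nearest genes were AT3G19680, AT5G25240, AT4G16563 and AT1G80130.

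ASN1 had no such close neighbour among the genes compared. The gene nearest to it, AT5G22460, was at a distance of 0.38, where the profile of ASN1 had a size of 0.81. AT5G22460 had 155.1, 165.0 and 146.1 in saliva samples 1, 2 and 3 and 83.6, 81.5 and 81.9 in control samples 1, 2 and 3, so its groups were each more even than the saliva samples of ASN1. The following genes were AT1G80130 at 0.40, AT2G14900 at 0.44, AT3G01430 at 0.46 and AT4G28085 at 0.47. AT1G80130 was on both lists, with differences of 1.05, 1.62 and 1.95 in pairs 1, 2 and 3. ASN1 and AT4G27450 were 0.48 apart, so each was nearer to the genes named for it than to the other. Within the aluminium-induced-like family the smallest distance was 0.16, between AT5G43830 and AT3G22850, and the largest was 0.78, between AT4G27450 and AT3G22850. The distance is not scaled to the size of the profiles, so genes that vary little lie close together. AT5G43830 had differences of -0.045, 0.19 and -0.046 in pairs 1, 2 and 3. Those of AT3G22850 were opposite in sign in each pair, at 0.091, -0.31 and 0.12.

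**Figure D4:**
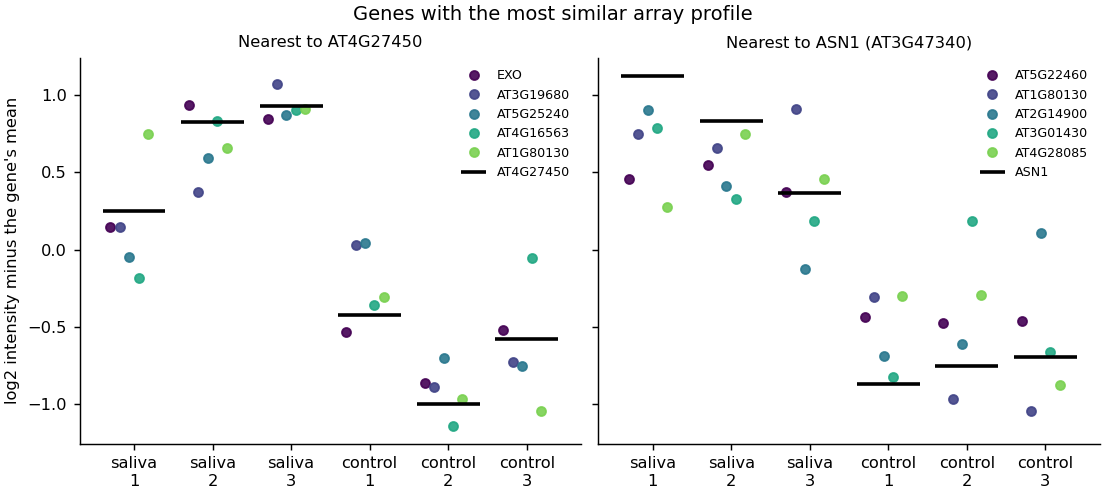
Log2 intensity minus the gene's mean (vertical axis) on the 6 arrays for the 5 genes nearest to AT4G27450 (left) and to ASN1 (right), with black bars for the gene they are compared with. EXO stays within 0.14 of the bars on the left panel on each array, and AT5G22460, the nearest on the right, lies at a distance of 0.38.

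The mean difference of each gene was computed again with each pair left out and with other processing. AT4G27450 lay between 1.09 and 1.66 with a pair left out, and ASN1 between 1.32 and 1.79. AT3G15450 lay between 0.46 and 0.61 and AILP1 between 0.18 and 0.30. Without replicate 2, AT5G43830 had -0.046 and AT3G22850 had 0.11, so the sign of each of these means rests on pair 2. Weighting the arrays, which gave pair 2 the most weight, moved AT4G27450 to 1.56, AT5G43830 to 0.10 and AT3G22850 to -0.15.

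**Figure D5:**
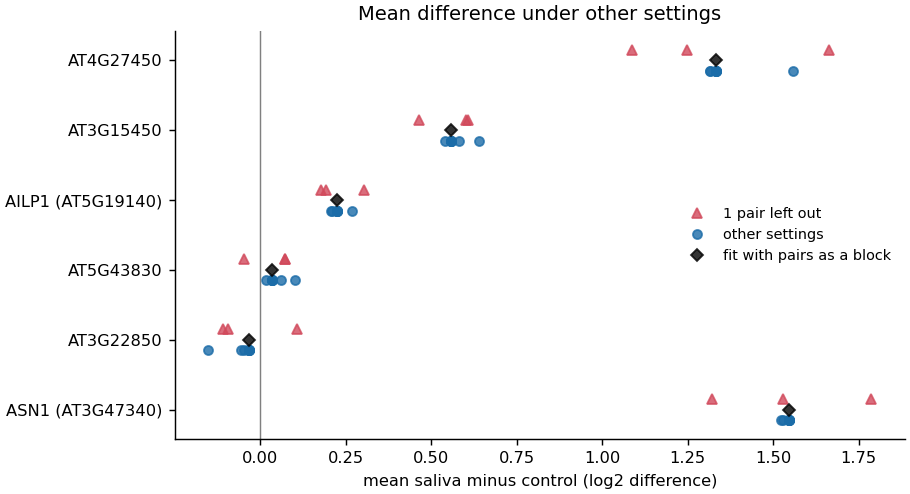
Mean saliva minus control in log2 units (horizontal axis) for each gene in the fit with pairs as a block (diamonds), with 1 pair left out (triangles) and under the other settings (circles). ASN1, AT4G27450, AT3G15450 and AILP1 stay above 0 throughout, and the triangles of AT5G43830 and AT3G22850 fall on both sides of 0.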

How the data were processed

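Each of 6 samples, 3 saliva and 3 control, was read on 1 array. Normalized, linear intensity values were deposited by the authors, with a fold (a ratio of group means to within 0.174%) and paired and unpaired false discovery rates (adjusted p-values) per the file headers. The submitters' processing notes name GCRMA, GCOS and limma without saying which step each served. The 2 deposited tables differed in 0 array values, and 0 columns of per-sample values were left unused. Precision is limited by the number of arrays.

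Log2 values were taken without a pseudocount. Of 15236 probe sets, 59 were Affymetrix controls, and 15177 entered the fit (limma 3.58.1, R 4.3.3; lmFit, eBayes and Benjamini-Hochberg), which was tested on simulated data first. The probe annotation gave 1 gene for 8330, several for 334 and none for 6513, and symbols came from RefSeq, assembly TAIR10.1. The repeat number was a block, because per the labels' protocols both treatments shared pots. Deviations from group means correlated within pairs by -0.12, 0.15 and 0.10 across probe sets. Genes and lists were chosen with earlier results of these data known. From a list, all measured genes were named where it had 4 or fewer, otherwise the 4 with the smallest p; 5 genes were named for likeness to AT4G27450 and to ASN1. A gene was read by its probe set with the highest mean. Alternatives were a fit without the block, a mean log2 floor of 4, quantile normalization, median centring, an intensity trend, array weights, the raw file name group (replicate 1 apart) as block, each pair left out, control probe sets kept, all probe sets of a gene averaged and other thresholds. No sequences or coordinates were used here.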

Additional observations from a re-analysis of the deposited data

How the results depend on the processing

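The counts of probe sets called higher and lower were 0 and 0 in the limma fit with pairs as a block and 0 and 0 without it (no replicate block), and they were also 0 and 0 with the mean log2 floor, quantile normalization, median centring, intensity trend, array weights, raw file name group as block, control probe sets kept, each pair left out and an adjusted p under 0.1. At an unadjusted p under 0.05, a looser threshold by construction, they were 848 and 826. The block changed no call. By construction the mean differences of the 6 genes cannot move with the block, the file name group, the floor, the trend, the control probe sets or averaged probe sets (each gene has 1). A pair left out can move a mean of 3 by only part of their SD, so a shift below the SD shows nothing there; those of AT5G43830 and AT3G22850 changed sign without replicate 2. The raw file names part replicate 1 from the others, so the values without replicate 1 are those within the larger group: 1.66 for AT4G27450, 0.61 for AT3G15450, 0.30 for AILP1, 0.074 for AT5G43830, -0.092 for AT3G22850 and 1.32 for ASN1. The number of list genes with an adjusted p under 0.05 was 0 in each of these fits. The means of DFR and AT1G51340 rest on 1 pair. Of the list genes 8 turned sign in some fit, each with a mean smaller in size than its SD over pairs. Without replicate 1 these were AT1G51340 (0.0054), AT2G28060 (0.0029), SWEET2 (AT3G14770, -0.079), GFAT (AT3G24090, -0.075) and ASPGA1 (AT5G08100, 0.038). Without replicate 2 they were ASPGB1 (AT3G16150, -0.0068), GFAT (-0.19) and MCCB (AT4G34030, -0.083), and without replicate 3 ASPGB1 (-0.010), MCCB (-0.050) and DFR (AT5G42800, -0.014). Over the 3 fits with a pair left out the ranges were -0.43 to 0.0054 for AT1G51340, -0.23 to 0.0029 for AT2G28060, -0.079 to 0.33 for SWEET2, -0.010 to 0.017 for ASPGB1, -0.19 to 0.57 for GFAT, -0.083 to 0.16 for MCCB, -0.045 to 0.038 for ASPGA1 and -0.014 to 0.54 for DFR. Median centring turned ASPGB1 (-0.015) and MCCB (-0.0055), quantile normalization MCCB (-0.0047) and array weights ASPGA1 (0.019). Among list genes above 0 in all 3 pairs, AT5G38710 went from 0.20 to 1.17 and AKINBETA1 from 0.22 to 0.62 with a pair left out. Fold changes of dim probe sets are limited by the lowest intensities.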
